A study of Mus musculus with 12 samples.

Results

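The change from day 2 (D2) to day 4 (D4) of neuronal differentiation was followed in 6 of the 12 libraries of the series, 3 from each day. The cells were wild-type P19, a mouse embryonal carcinoma line that differentiates into neurons when given retinoic acid, and at both days they had been kept in NDiff 227 medium with 500 nM retinoic acid, so that the comparison is between lengths of exposure to the same treatment. Each library was labelled as a biological replicate. RNA was read directly on nanopores, 1 read for 1 molecule from the poly(A) end, which gives the gene and the length of the poly(A) tail together. Reads were chosen by the day in their replicate label, a tail call tagged PASS and an mRNA class, and pseudogene families and mitochondrial transcripts were left out of the main counts. Of 14042 genes with such reads in the series, 12813 had reads at D2 or D4.

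P19 cells given retinoic acid leave the pluripotent state, become neural progenitors and then produce neurons that no longer divide. Retinoic acid enters the nucleus with the help of cellular binding proteins, acts through nuclear receptors that switch on Hox genes in an order set by their place in the cluster, and is degraded by CYP26 enzymes. The poly(A) tail of an mRNA is shortened by deadenylases and is bound by poly(A)-binding proteins, and TOP (terminal oligopyrimidine) transcripts, which begin with a run of pyrimidines, encode ribosomal proteins and translation factors.

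The D2 libraries held 120326, 241064 and 184405 kept reads and the D4 libraries 252203, 435389 and 421916. Tail calls tagged PASS made up 80.7 to 82.4% of assigned reads at D2 and 73.2 to 75.5% at D4, and mitochondrial reads made up 5.53 to 6.87% and 7.36 to 8.59%. Each sequencing run held libraries of a single day, so day and run cannot be told apart. The median aligned length was 703 to 756 nt at D2 and 752 to 835 nt at D4. The part of these differences in the results below was not tested. Abundance is given as CPM, reads per 1000000 of the scaled library size. A single read was worth 4.01 to 7.84 CPM at D2 and 2.32 to 4.08 CPM at D4.

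In abundance, 187 of 9309 tested genes were higher at D4 (2.01%) and 95 were lower (1.02%), together 3.03%, at an adjusted p of 0.05 or less by limma-voom. The higher genes included neurofilaments and tubulins, Hox genes of the B cluster and genes that handle retinoic acid, and the lower ones included the progenitor surface protein Prtg, the retinoic acid binding proteins Crabp1 and Crabp2 and the secreted factor Serpinf1, besides 2 gene models of uncertain source, D10Wsu102e and Vmn2r97, which had the smallest p-values. The median change of called genes was 1.63 on the log2 scale for the higher and -1.06 for the lower, and 136 of the higher and 51 of the lower changed at least 2-fold. The balance of directions moved with the scaling: 66.3% of the calls were higher as reported, 56.1% with median-of-ratios factors (175 higher, 137 lower) and 55.2% with library totals (170 higher, 138 lower). The median over all tested genes was 0.04. Libraries of the days did not overlap in CPM for 185 of the 187 higher and 90 of the 95 lower genes, against 13.7% and 7.07% of all tested genes. Without D2 replicate 2 there were 98 higher and 51 lower genes, and without D4 replicate 2 there were 59 lower.

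**Figure D1:**
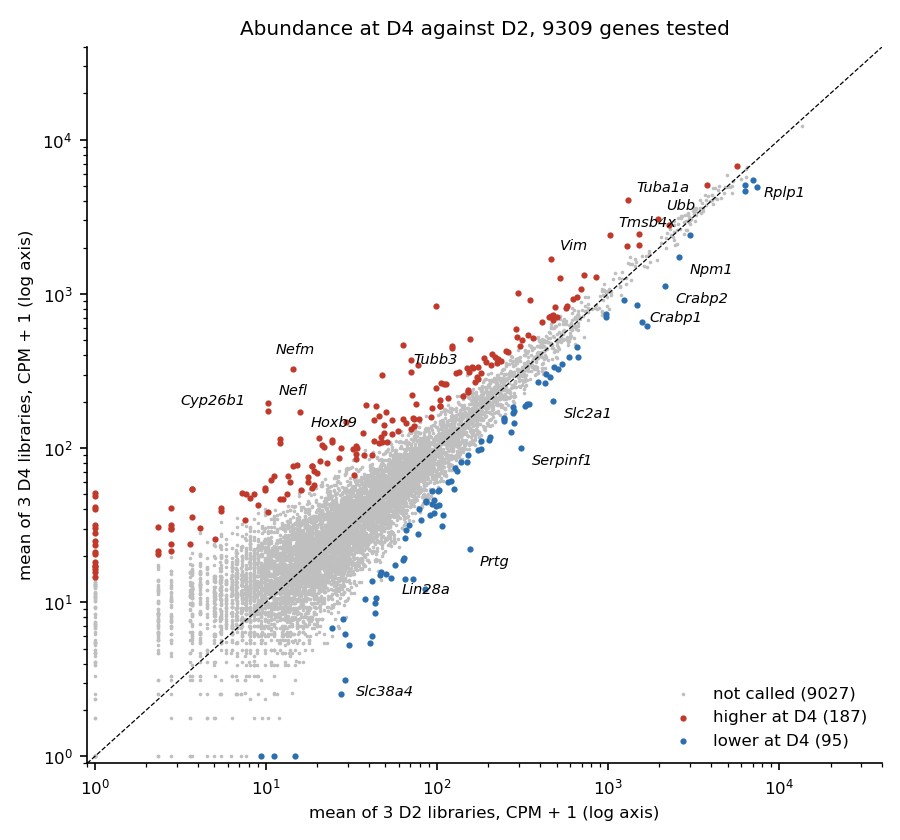
Mean abundance of 9309 genes at D2 (x axis) and D4 (y axis), both as CPM plus 1 on log axes, with 1 point per gene. The 187 genes higher at D4 (red) lie above the diagonal and the 95 lower genes (blue) below it, while the other 9027 (grey) gather along it.

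Genes of the neuronal cytoskeleton and growth cone were higher as a group. Of 46 tested members 23 rose and 0 fell, with a median log2 change of 1.40. Their summed level was 5762, 5948 and 6027 CPM in the D2 libraries and 15309, 15327 and 15297 CPM at D4. In bulk RNA, more cells of a type and more of its RNA per cell cannot be told apart.

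The neurofilament genes Nefm and Nefl, neighbours on chromosome 14 (chr14:68119283-68124846 and chr14:68083863-68089095, GRCm38), encode the medium and light subunits of the axonal intermediate filament. Nefm was at 0, 24.1 and 15.9 CPM at D2 and at 257, 321 and 397 CPM at D4. The D4 libraries lay far above those of D2, and Nefm rose by 4.53 ± 0.56 (log2 change ± SE; limma-voom adjusted p 9.97e-09). Nefl was at 7.84, 4.01 and 15.9 CPM at D2 and at 257, 136 and 192 CPM at D4, again without overlap, a rise of 4.13 ± 0.58 (limma-voom adjusted p 4.75e-07). Both stood at D6 close to their D4 level, with 298 ± 70.3 CPM for Nefm and 174 ± 28.2 CPM for Nefl (mean ± SD, n = 3).

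Called tubulin genes were higher with the exception of Tubb6, a beta-tubulin found in many tissues, which fell by 0.96 ± 0.26 (limma-voom adjusted p 0.0216). Tuba1a, the main alpha-tubulin of young neurons (chr15:98949837-98953703), had 1145, 1204 and 1593 CPM at D2 and 4203, 4151 and 3800.5 CPM at D4, the largest gain in mean CPM among called genes, and rose by 1.63 ± 0.10 (limma-voom adjusted p 3.24e-20). Tubb3, the beta-tubulin used as a marker of neurons (chr8:123411424-123422015), had 31.4, 80.3 and 74.3 CPM at D2 and 420.3, 473 and 494 CPM at D4. Tubb3 rose by 2.82 ± 0.27 (limma-voom adjusted p 2.86e-12), and its level over the 4 days was 140.4 ± 3.91, 62 ± 26.7, 463 ± 38 and 915 ± 102 CPM, lowest at D2. Stmn2, a microtubule regulator of growth cones, was likewise lowest at D2, its mean level over the same days being 319.8 ± 18.5, 76.9 ± 20.9, 343 ± 39.7 and 722 ± 32.8 CPM. The D2 libraries held 54.9, 96.3 and 79.7 CPM of Stmn2 and the D4 libraries 298, 361 and 371 CPM, a rise of 2.08 ± 0.24 (limma-voom adjusted p 1.35e-09). Tubb2b rose by 1.76 ± 0.14 and Stmn1 by 1.29 ± 0.13.

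Map2, a dendritic microtubule-associated protein, had 15.7, 16.1 and 10.6 CPM at D2 and 69.4, 56.3 and 104 CPM at D4, and rose by 2.20 ± 0.48 (limma-voom adjusted p 0.00223). Of its reads 98.9% had a mapping quality under 10, which in an alignment to transcripts also marks reads shared by isoforms of a single gene. Dcx, a microtubule protein of migrating neurons, had 0 reads at D2 and 28.6, 25.8 and 62.6 CPM at D4, at least 7.68-fold higher against a floor of 3 reads over the D2 libraries (limma-voom adjusted p 9.8e-05). The actin-sequestering Tmsb4x rose by 1.22 ± 0.11, from 1028 ± 113 to 2411 ± 86.8 CPM (n = 3).

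Among the synaptic vesicle genes 4 of 19 tested members rose and 0 fell, with a median of 1.37. After thinning to the smallest library, and in the runs of 11 January alone, 2 were higher. Snap25, a SNARE protein of the presynaptic membrane, had 0 reads at D2 and 28.6, 18.8 and 11.6 CPM at D4, at least 3.42-fold higher against the same floor (limma-voom adjusted p 0.0092). Nsg1, a neuronal endosomal protein, rose by 2.42 ± 0.51. Scg3, a protein of dense-core vesicles, had a single read at D2 and 40 at D4, a ratio of 20.5 with a 95% exact counting interval of 3.47 to 829. Of 23 tested neuronal RNA-binding and splicing regulators 2 rose, the neuronal ELAV proteins Elavl4 (2.71 ± 0.62) and Elavl3 (2.31 ± 0.56), and 0 fell, with a median of 0.23, but after thinning to the smallest library the median was -0.08, with 0 higher and 1 lower. Snap25 lost its call without D2 replicate 2 or D2 replicate 3 (limma-voom adjusted p up to 0.124), Scg3 and Elavl3 without D2 replicate 2 (0.0947 and 0.121) and Elavl4 without D2 replicate 3 (0.0931).

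**Figure D2:**
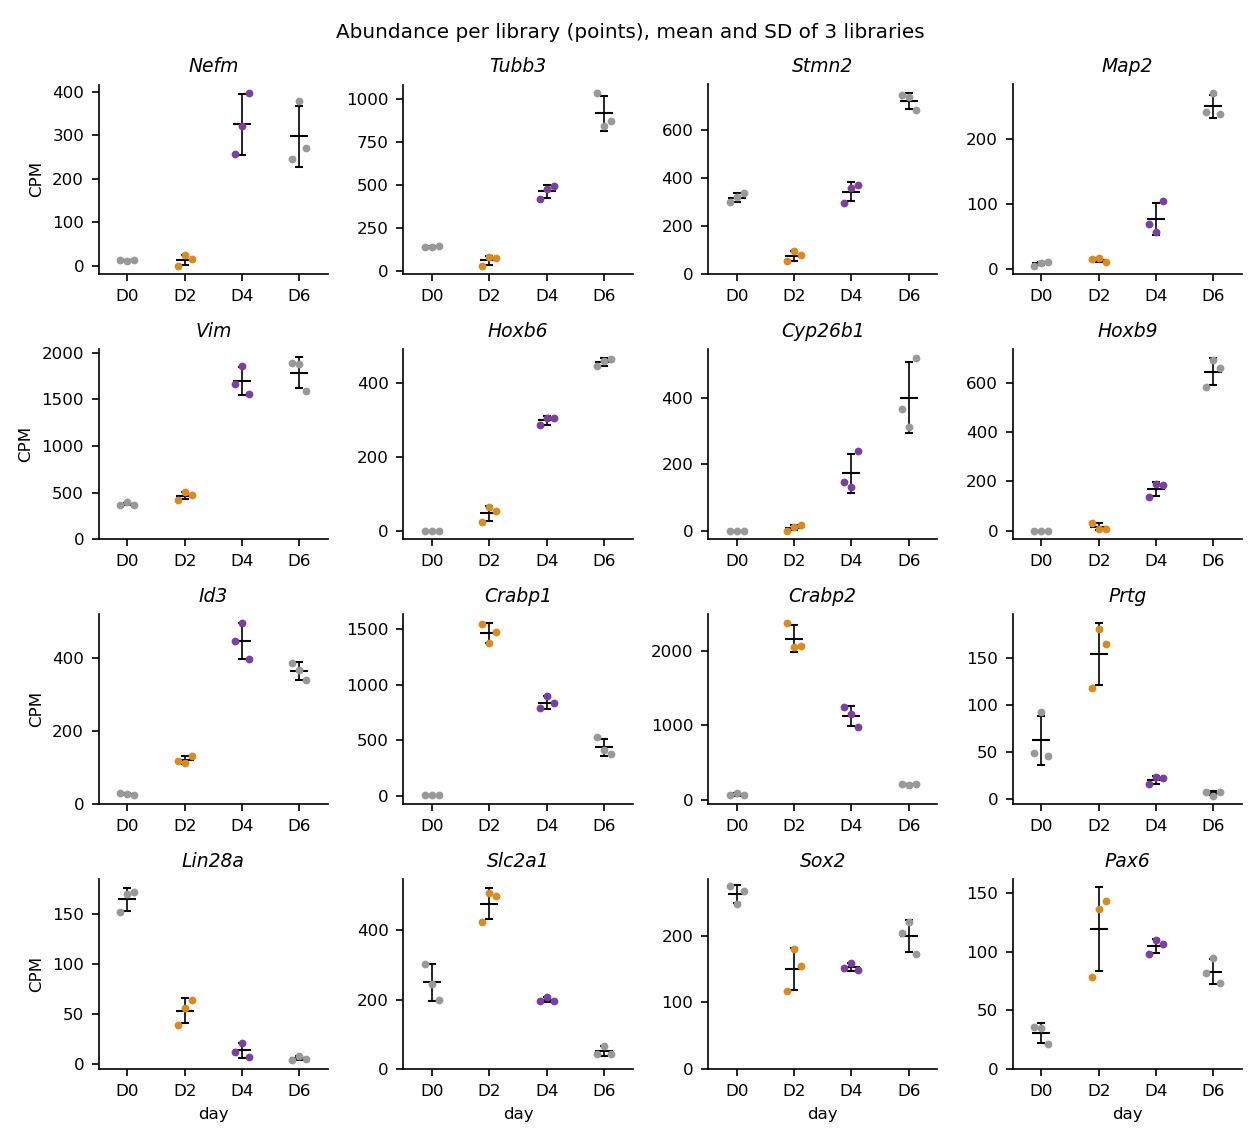
CPM of 16 genes in each library at D0, D2, D4 and D6, with points for libraries and bars for the mean and SD of 3. D2 is orange, D4 purple and the other days grey. Nefm, Tubb3, Stmn2 and Map2 step up from D2 to D4, Crabp1, Crabp2 and Prtg step down, and Sox2 and Pax6 keep overlapping levels.

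Among Hox genes, which set position along the body axis, the called members were all higher. Of 48 listed genes 35 had reads at D2 or D4 and 30 were tested, of which 10 rose and 0 fell, with a median of 0.88, 25 members above 0 and 5 below. Their summed level was 1286, 1682 and 1630 CPM at D2 and 3419, 3310 and 3580 CPM at D4. The called genes were Hoxb2, Hoxb3, Hoxb5, Hoxb6, Hoxb8 and Hoxb9 together with Hoxa4, Hoxa5, Hoxc4 and Hoxd8. Without D2 replicate 2 Hoxa4, Hoxc4 and Hoxd8 lost their calls (limma-voom adjusted p up to 0.167, 0.0622 and 0.197 over single libraries left out), Hoxc4 also without D2 replicate 3 and Hoxd8 without each D2 library in turn or D4 replicate 1. Within the B cluster on chromosome 11 the largest change was that of the most 5′ called gene, Hoxb9 (chr11:96271457-96276595). Hoxb9 had 31.4, 8.03 and 5.31 CPM at D2 and 135, 188 and 186 CPM at D4, a rise of 3.76 ± 0.50 (limma-voom adjusted p 8.89e-08).

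Its neighbours started from higher D2 levels. Hoxb6 went from 23.5, 64.2 and 53.1 CPM to 286, 305 and 306 CPM (rise of 2.56 ± 0.29, limma-voom adjusted p 1.35e-09), and Hoxb5 from 70.6, 68.2 and 69 CPM to 302, 277 and 350.1 CPM (2.11 ± 0.24). Hoxb8 rose by 1.89 ± 0.20 from 121 ± 24.5 CPM, Hoxb2 by 1.69 ± 0.18 from 155 ± 6.05 CPM and Hoxb3 by 1.31 ± 0.26 from 73.9 ± 26.6 CPM (n = 3). The D4 and D2 libraries of these genes did not overlap. None of the 6 had a read at D0. Reads of mapping quality under 10 made up 75% for Hoxb9 and 73.1% for Hoxb6 but 0.87% for Hoxb8.

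Genes that handle retinoic acid moved both ways. Of 16 tested members 3 rose and 2 fell, with a median of 0.16 (0.05 after thinning, with 2 higher and 2 lower). Cyp26b1, an enzyme that breaks retinoic acid down (chr6:84571414-84587680), had 0, 12 and 15.9 CPM at D2 and 147, 131 and 239 CPM at D4, a rise of 3.95 ± 0.62 (limma-voom adjusted p 8.64e-06). The related Cyp26a1 had 70.6, 36.1 and 31.9 CPM against 57.1, 37.5 and 34.8 CPM and did not pass the test (-0.05 ± 0.38, limma-voom adjusted p 0.966).

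The cellular retinoic acid binding proteins were lower. Crabp2, which carries retinoic acid to its receptor (chr3:87948666-87953376), went from 2375, 2051 and 2066 CPM to 1240.4, 1151 and 981 CPM and fell by 0.95 ± 0.10 (limma-voom adjusted p 1.9e-10). Crabp1 (chr9:54764748-54773110) went from 1552, 1372 and 1476 CPM to 787, 900.1 and 835 CPM and fell by 0.79 ± 0.11 (limma-voom adjusted p 8.67e-07). For both genes the highest D4 library lay below the lowest of D2, yet both levels at D4 stayed far above those at D0, which were 70.4 ± 15.3 CPM for Crabp2 and 8 ± 4.37 CPM for Crabp1 (n = 3). Fabp5, a fatty acid binding protein that can also bind retinoic acid, rose by 0.49 ± 0.14 (limma-voom adjusted p 0.0239) but lost its call without D2 replicate 2 or 3 or D4 replicate 1 or 2 (limma-voom adjusted p up to 0.160).

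Progenitor genes did not move as a block. Of 30 tested members 7 rose and 1 fell, with a median of 0.25. In the runs of 11 January alone the median of the tested members was -0.06 with 5 higher and 1 lower, and after thinning it was 0.07 with 2 higher and 0 lower. Vim, the intermediate filament of progenitors, went from 423, 502 and 473 CPM to 1665, 1859 and 1558 CPM and rose by 1.84 ± 0.13 (limma-voom adjusted p 5.21e-18). Fabp7, the fatty acid binding protein of radial glia, rose by 1.39 ± 0.28, and the SoxC factors Sox4 and Sox11, which act in newborn neurons, by 1.27 ± 0.31 and 1.01 ± 0.27. Pou3f3, a cortical POU factor, had a single read at D2 and 38 at D4 (ratio 19.5, 95% exact counting interval 3.29 to 789), and Sox9, a factor of glial precursors, had 2 and 34 (ratio 8.71, interval 2.23 to 74.8). The growth factor Ptn fell by 2.36 ± 0.45 (limma-voom adjusted p 0.000214). Without D2 replicate 2 Sox4, Sox11, Pou3f3 and Sox9 were not called (limma-voom adjusted p up to 0.0913, 0.258, 0.167 and 0.140 over single libraries left out), nor was Sox4 without D2 replicate 3, Pou3f3 without D2 replicate 1, or Sox9 without each D2 library in turn or D4 replicate 3.

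The factors most used to mark neural progenitors did not pass the test. Sox2 had 118, 181 and 154 CPM at D2 and 151, 159 and 148 CPM at D4 (-0.03 ± 0.21, limma-voom adjusted p 0.97). Pax6 had 78.4, 136 and 143 CPM against 97.9, 110.2 and 107 CPM (-0.22 ± 0.24, limma-voom adjusted p 0.721), with 76.1% of its reads under mapping quality 10 and a change of 1.26 over the other reads alone. Nes, the progenitor filament nestin, had 54.9, 108 and 138 CPM against 110.2, 70.3 and 83.5 CPM (-0.28 ± 0.28). In all 3 the days overlapped. Among 14 tested patterning homeodomain factors Dbx1, a factor of ventral interneuron progenitors, rose by 1.18 ± 0.20 and Lhx2, a forebrain factor, fell by 1.75 ± 0.47, the only calls. The call of Lhx2 was lost without D2 replicate 2, D4 replicate 1 or D4 replicate 2 (limma-voom adjusted p up to 0.388).

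Proneural and Notch pathway genes had 4 called of 38 tested, all higher, with a median of 0.76 (0.61 with 1 higher after thinning to the smallest library). Id3, an inhibitor of basic helix-loop-helix factors, went from 118, 112 and 133 CPM to 445, 495 and 397 CPM and rose by 1.86 ± 0.20 (limma-voom adjusted p 1.45e-10). The related Id2 rose by 1.14 ± 0.26 with 99.1% of its reads under mapping quality 10. Hes5, a target of Notch, rose by 0.99 ± 0.20, from 152 ± 9.8 to 312 ± 42.5 CPM (n = 3). Insm1, a factor of intermediate progenitors, rose by 1.48 ± 0.37. Id2 and Insm1 lost their calls without D2 replicate 2 (limma-voom adjusted p 0.170 and 0.186). The proneural Neurod1 had 7.49 ± 3.32 CPM at D2 and 17.9 ± 2.6 CPM at D4 and did not pass the test (limma-voom adjusted p 0.424).

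Pluripotency markers had already reached low levels at D2. Of 46 listed genes 27 had reads at D2 or D4, and of 24 tested 2 fell and 0 rose, with a median of -0.96. In the runs of 11 January alone the median of the tested members was -0.06 with 1 lower, and with libraries thinned to the smallest it was -0.53 with 0 called by limma-voom. Pou5f1, the core pluripotency factor, had 4 reads at D2 and 0 at D4 (limma-voom adjusted p 0.117), against 1706 ± 174 CPM at D0, and Nanog had 0 reads at both days. Lin28a, an RNA-binding protein of embryonic cells, went from 39.2, 56.2 and 63.7 CPM to 12.2, 21.1 and 6.96 CPM and fell by 2.06 ± 0.45 (limma-voom adjusted p 0.00191). The other called member was the glucose transporter Slc2a3, which fell by 2.06 ± 0.50. Without D4 replicate 3 Lin28a and Slc2a3 were just past the threshold (limma-voom adjusted p 0.0504 and 0.0571).

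Markers of other cell types had reads in every list, from 5 of 20 muscle markers to 23 of 32 mesenchymal and matrix genes. Genes named as having none or at 0 are examples of the members without reads. Of 27 mesoderm and endoderm factors 7 had reads, with a summed level of 15.7 to 24.1 CPM at D2 and 0 to 9.38 CPM at D4, and Eomes and Mixl1 had none. Muscle markers (5 of 20 with reads) summed to 4.01 to 7.84 and 2.32 to 7.03 CPM, and Actc1 and Des had none. Epithelial genes (8 of 22) summed to 23.5 to 63.7 and 58.6 to 81.6 CPM, with Krt8 and Krt18 at 0. Astrocyte and oligodendrocyte markers (10 of 17) summed to 106 to 173 and 106 to 160 CPM, with Gfap at 0, neural crest markers (12 of 20) to 26.6 to 60.2 and 40.8 to 67.2 CPM, and mesenchymal and matrix genes (23 of 32) to 345 to 401 and 258 to 385 CPM, with Col1a1 at 0. Called members of these lists were Slc1a3 and Gja1. Slc1a3, a glutamate transporter that radial glia also express, had 2 reads at D2 and 60 at D4 (ratio 15.4, 95% exact counting interval 4.07 to 129.8). Gja1, the gap junction protein connexin 43, fell by 1.30 ± 0.31 but was not called without D2 replicate 2 (limma-voom adjusted p 0.151). After thinning to the smallest library 0 members of the astrocyte and oligodendrocyte list were called by limma-voom.

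The largest fall by the naming rule was that of Prtg, protogenin, a surface protein of early neural cells (chr9:72806874-72917291). It went from 118, 181 and 165 CPM to 16.3, 23.4 and 23.2 CPM, a fall of 2.81 ± 0.35 (limma-voom adjusted p 1.39e-08). Serpinf1, the secreted factor PEDF, went from 329, 241 and 361 CPM to 118, 86.7 and 92.8 CPM and fell by 1.63 ± 0.21 (limma-voom adjusted p 5.59e-08). Serpinf1 was highest at D2, with 42 ± 22.5 CPM at D0 and 15.9 ± 6.83 CPM at D6 (n = 3). Prps2, an enzyme of nucleotide synthesis, fell by 1.61 ± 0.31.

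Of 43 tested replication genes 6 fell and 0 rose, 3 were above 0 and the median was -0.46, while 11 were lower under either of the other scalings. Dut, a dUTPase, went from 353, 466 and 467 CPM to 257, 288 and 241 CPM (fall of 0.73 ± 0.15, limma-voom adjusted p 0.000905). Mcm5, a helicase subunit, fell by 0.75 ± 0.17, Mcm10, which fires origins, by 1.34 ± 0.33, the clamp loader subunit Rfc1 by 1.24 ± 0.30 and the single-strand binding protein Rpa1 by 0.83 ± 0.21. Mitosis genes had 1 called of 43 (2.33%, beside 3.03% of all tested genes), Birc5, a survival and chromosome passenger protein that fell by 0.56 ± 0.16, and a median of -0.24, with 3 lower under median-of-ratios factors and 2 under library totals. The proliferation marker Mki67 had 156 ± 45.3 and 106 ± 32 CPM (limma-voom adjusted p 0.224). Among 21 G1 regulators the cyclin Ccnd2 fell by 0.86 ± 0.22, while the kinase inhibitor Cdkn2d and the antiproliferative Btg1 rose by 1.75 ± 0.46 and 1.10 ± 0.30, and after thinning 0 were higher and 1 lower. Without D2 replicate 2 Mcm10, Rpa1, Birc5, Ccnd2, Cdkn2d and Btg1 were not called (limma-voom adjusted p up to 0.357 over single libraries left out), and Rfc1 was not called without D2 replicate 3 (0.0999). Single calls were also lost without D2 replicate 3 (Rpa1, Birc5, Cdkn2d, Btg1), D4 replicate 1 (Rpa1, Birc5, Ccnd2), D4 replicate 2 (Mcm10, Birc5, Ccnd2) and D4 replicate 3 (Birc5, Btg1).

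**Figure D3:**
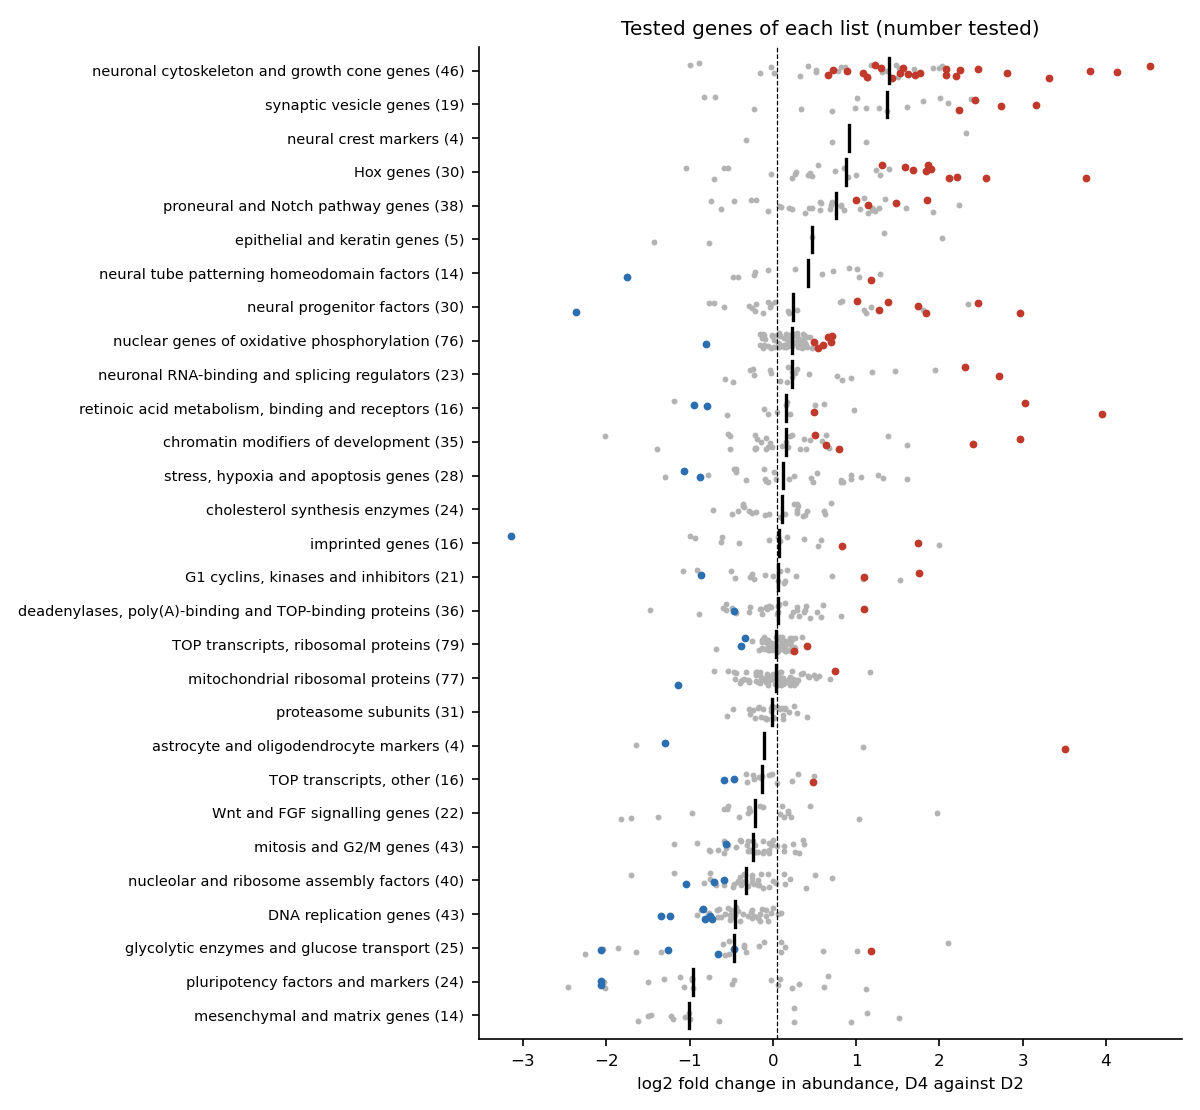
Log2 change in abundance from D2 to D4 of tested genes, by gene list (lists with at least 4 tested members). Points are genes, bars are list medians and the dashed line is the median of all tested genes, 0.04. The neuronal cytoskeleton, synaptic and Hox lists lie to the right of it, and the replication, glycolysis and pluripotency lists to the left, the glycolysis list with Slc2a1 and Gapdh included (median -0.35 without them).

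Glycolytic enzymes and glucose transporters had 4 lower and 1 higher of 25 tested, with a median of -0.46. Without Slc2a1 and Gapdh there were 2 lower and 1 higher of 23, with a median of -0.35, and over reads with a mapping quality of at least 10 there were 1 lower and 1 higher of 17, with a median of -0.19. Slc2a1, the glucose transporter GLUT1, went from 423, 506 and 499 CPM to 196, 209 and 195 CPM (-1.26 ± 0.16, limma-voom adjusted p 3.15e-08), and Gapdh from 6726, 5751 and 6617 CPM to 5210.3, 4639 and 4079 CPM (-0.46 ± 0.08, limma-voom adjusted p 9.38e-05). Of these reads 70.9% for Slc2a1 and 93.9% for Gapdh had a mapping quality under 10, and with the other reads alone the changes were 0.12 and 0.17, so their direction is uncertain. The kinase Pgk1, with 0.786% such reads, fell by 0.66 ± 0.15 (limma-voom adjusted p 0.00382, up to 0.0618 without D2 replicate 1, D2 replicate 2 or D4 replicate 3), and Ldhb, the lactate dehydrogenase subunit of oxidative tissue, rose by 1.18 ± 0.22.

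Nuclear genes of oxidative phosphorylation had 6 higher and 1 lower of 76 tested, with a median of 0.23 (0.14 after thinning, with 2 higher and 1 lower) and 63 members above 0. The higher ones included the ATP synthase subunits Atp5d (0.71 ± 0.16) and Atp5l (0.61 ± 0.14) and the complex I subunit Ndufa12 (0.67 ± 0.15). Without D2 replicate 2 Atp5d and Atp5l were not called (limma-voom adjusted p 0.0678 and 0.091). Ndufa1, also of complex I, went the other way, from 698, 674 and 616 CPM to 465, 375 and 325 CPM (fall of 0.81 ± 0.14, limma-voom adjusted p 6.36e-05).

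In the translation machinery single changes were small. Of 79 ribosomal protein genes of the TOP list 2 rose and 2 fell (5.06% called, beside 3.03% of all tested genes), with a median of 0.04. The median was -0.01 with median-of-ratios factors (1 higher, 2 lower) and -0.02 with library totals (2 higher, 6 lower). There were 1 higher and 4 lower after thinning and 3 higher and 5 lower in the runs of 11 January. Rpl23a, of the large subunit, rose by 0.25 ± 0.07 but was not called without D2 replicate 2 (limma-voom adjusted p 0.193). Rplp1, a ribosomal stalk protein, went from 6805, 6802 and 7615 CPM to 5916, 5403 and 5111 CPM (fall of 0.38 ± 0.07, limma-voom adjusted p 0.000264), and Rps12 fell by 0.34 ± 0.07. Many ribosomal protein reads align about as well to near-identical copies, so single members are uncertain. Rps2-ps10, an annotated copy of Rps2, fell by 0.60 ± 0.07, and how many of its reads stem from Rps2 was not tested.

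The other 16 TOP genes had 1 higher and 2 lower, with a median of -0.13, but 4 lower with median-of-ratios factors and 5 with library totals. Npm1, a nucleolar chaperone, went from 2752, 2617 and 2453 CPM to 1706, 1910.3 and 1588 CPM (fall of 0.58 ± 0.10, limma-voom adjusted p 2.23e-05), Pabpc1, the main poly(A)-binding protein, fell by 0.46 ± 0.12 and Eif3f, an initiation factor, rose by 0.48 ± 0.13. Rpl4 (-0.12 ± 0.09, limma-voom adjusted p 0.518), the elongation factor Eef2 (-0.14 ± 0.10, 0.522) and Larp1, which binds TOP mRNA (-0.02 ± 0.29, 0.982), did not pass. TOP reads made up 33.2, 31.0 and 31.8% of kept reads at D2 and 32.3, 31.2 and 30.1% at D4, which overlap (-0.79 points, two-sided exact permutation p 0.50). Among reads with a mapping quality of at least 10 the share was 33.8, 33.1 and 33.4% at D2 and 31.7, 31.2 and 31.1% at D4, which do not overlap (-2.10 points, exact permutation p 0.10). Nucleolar and ribosome assembly factors had 3 lower of 40 and 0 higher (7.50% called, beside 3.03% of all tested genes), with a median of -0.32. The 3 were Nhp2 (-0.70 ± 0.15), Dkc1 (-1.05 ± 0.28) and the methyltransferase Fbl (-0.59 ± 0.17). Under either of the other scalings 5 were lower. The call of Fbl was lost whichever library was left out (limma-voom adjusted p up to 0.179), those of Pabpc1, Eif3f and Dkc1 without D2 replicate 2 (up to 0.282, 0.228 and 0.227 over single libraries left out), that of Pabpc1 also without D4 replicate 1 or 2 and that of Dkc1 without D4 replicate 2 or 3.

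Tails moved in TOP transcripts while the tails of all kept reads stayed in the same range. The median tail of kept reads was 96.55, 96.74 and 98.45 nt in the D2 libraries and 95.22, 96.50 and 98.25 nt at D4 (difference -0.59 nt, two-sided exact permutation p 0.50). For TOP reads it was 87.2, 86.2 and 87.5 nt at D2 and 80.4, 82.9 and 82.3 nt at D4. Every D4 library lay below every D2 library, a difference of -5.09 nt (two-sided exact permutation p 0.10, which is the lowest p this design can give). For non-TOP reads it was 102.1, 102.4 and 104.6 nt against 104, 103.8 and 106.6 nt, which overlap (1.73 nt, exact permutation p 0.30).

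In TOP reads the shares of middle and short tails were higher at D4. The upper quartile was lower too, with 120.8 to 122.3 nt at D2 and 117.0 to 120.2 nt at D4. Tails of 30 to 90 nt made up 49.9 to 50.6% of TOP reads at D2 and 52 to 54.4% at D4, and tails under 30 nt 2.13 to 2.71% and 2.98 to 3.65% (exact permutation p 0.10 each). In non-TOP reads tails over 150 nt made up 22.6 to 23.9% at D2 and 24.4 to 25.5% at D4 (1.74 points, exact permutation p 0.10). In the runs of 11 January alone this difference was 1.89 points, and in those of 13 January it was 0.874 points and the days overlapped (exact permutation p 0.20).

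Tails of other RNAs were measured in the same libraries. Mitochondrial mRNAs had median tails of 58.1, 58.6 and 59 nt at D2 and 59.5, 59.7 and 59.8 nt at D4, which is 1.09 nt longer and opposite in sign to the TOP shift. RNA standards, read in number only in the first replicate of each day, had medians of 63.6 and 63.5 nt, 64.6 and 62.5 nt, and 117 and 107 nt at D2 and D4 for the 64-A, 128-A and 256-A standards, from 58 to 98 reads each. The labels 128-A and 256-A do not occur in the study's own list of standards and are not taken here as tail lengths. The 16 and 32 standards, with 27 to 53 reads, had 19.4 and 25.4 nt and 31.7 and 34.8 nt. The part of these differences in the TOP shift was not tested. In the runs of 11 January the TOP difference was -4.86 nt and in those of 13 January it was -6.30 nt, without overlap in either. Both dates read the same libraries, and each run held a single day, so the dates are not separate replicates and day and run stay confounded.

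**Figure D4:**
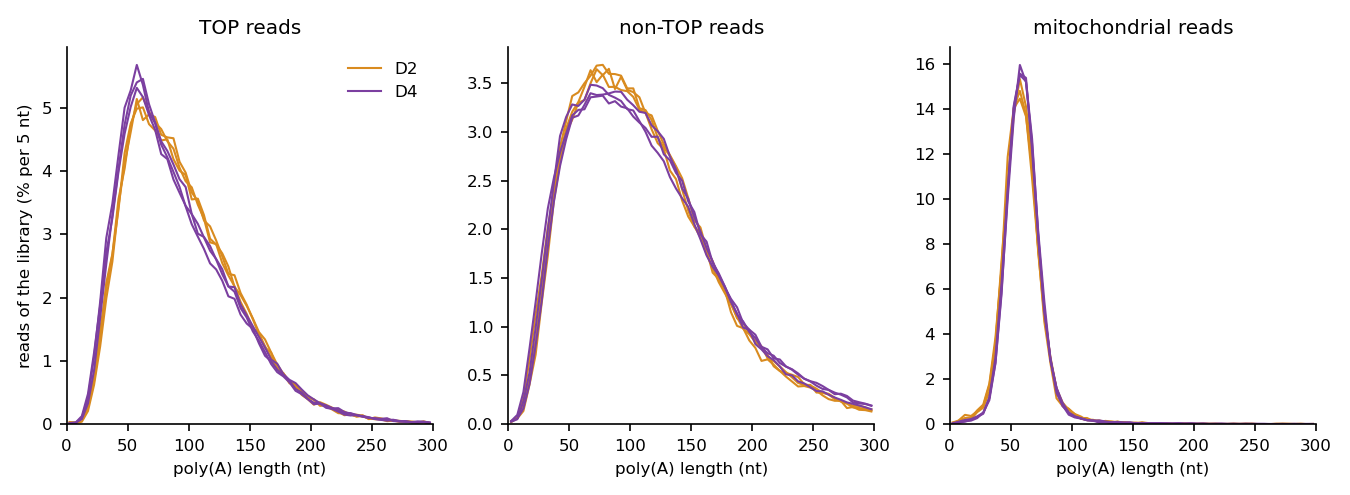
Distribution of tail lengths to 300 nt in TOP, non-TOP and mitochondrial reads, as the percentage of reads per 5 nt, with a line for each library (D2 orange, D4 purple). In TOP reads the D4 lines lie to the left of the D2 lines, with medians of 80.4 to 82.9 nt against 86.2 to 87.5 nt.

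By gene, 2075 genes had enough reads for a test of the mean log2 tail. At an adjusted p of 0.05 or less by limma 11 were shorter (0.53%) and 0 longer (0%), and at an unadjusted p of 0.05, 84 were shorter (4.05%) and 65 longer. Of the 84, 39 were TOP genes, and of the 65, 1 was. Of 95 TOP genes 86 were below 0 (90.5%) with a median of -0.06, against 906 of 1980 other genes (45.8%) and a median of 0.01. The libraries of the days did not overlap, with D4 shorter, for 51 TOP genes (53.7%) and 106 other genes (5.35%), beside 7.57% of all tested genes. With D4 longer they did not overlap for 1 TOP gene and 122 other genes. TOP genes have many reads, and among genes with a mean of over 500 reads per library 72 of 78 TOP genes were below 0 (median -0.06) and 11 of 19 others (median -0.01). The median tail over TOP genes was 84.6 nt at D2 and 80.9 nt at D4, and that over other genes 96.3 and 97.1 nt. The median SE of the log2 tail change was 0.14 for the 1243 genes under 50 reads per library and 0.03 for the 97 genes over 500.

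Of the 11 shorter genes 8 are ribosomal protein genes of the TOP list. The read starts of these mRNAs can be set beside the transcript sequence. Each line below gives 25 bases before the commonest first aligned base and 5 from it, read 5′ to 3′ from the GENCODE vM21 transcripts (GRCm38), with the longest run of C and T within the 25 in capitals. All lie in a single 5′ UTR exon. The first 5 are TOP genes with shorter tails, picked from the 8, and their runs are 14, 13, 12, 11 and 10 bases long. The runs of the called genes not shown are 10 (Rplp2), 9 (Rps28) and 6 bases (Rplp0). Crabp1 and Mdk follow, with runs of 7 and 4 bases. Both had shorter tails and are not on the TOP list.
Rpl39, chrX:37085163-37085192, minus strand: tcccggCCTTTCTCTTCTCCattcctccgc
Rps29, chr12:69159074-69159103, minus strand: cgagccgactcgTTCCTTTCTCCTCgttgg
Rps20, chr4:3835585-3835614, minus strand: gccgtccggCCCCTCCTTTCTgagccccgg
Rps12, chr10:23787184-23787213, minus strand: ggccaccgccggCCTTTTCCCCTgccgccg
Rpl23, chr11:97782366-97782395, minus strand: tgtactaaCTTCCTTTCTgaccctttccgg
Crabp1, chr9:54764794-54764823, plus strand: ggcgcagaacgccagTCTCTCTgcaacgca
Mdk, chr2:91931720-91931749, minus strand: cggCCTTagcgggacaggccggagcgggag

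Direct RNA reads stop short of the cap, and the pyrimidine runs in these windows lie before the read start. A run of at least 6 was in 73 of 74 TOP windows (98.6%), in 315 of 1149 other windows (27.4%) and in 388 of 1223 in all (31.7%). The longest run had a median of 12 bases in TOP and 4 in other windows. A match here is a description of the letters and not of a bound site.

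Crabp1, shorter although it is no TOP gene, had the smallest adjusted p. Its geometric mean tail was 131, 127 and 128 nt at D2 and 114, 112 and 109 nt at D4, a change of -0.20 ± 0.03 on the log2 scale (limma adjusted p 0.00018). The share of its tails of 30 to 90 nt went from 14.7% ± 0.986 to 25.8% ± 3.54 (SD, n = 3). Crabp1 thus fell in abundance and in tail length, whereas Crabp2, which fell in abundance, had tails of 99.7, 99.4 and 101 nt against 99.8, 98.9 and 98 nt (limma adjusted p 0.946). Mdk, the growth factor midkine, went from 96.5, 97.9 and 99.6 nt to 89.3, 87.5 and 91.3 nt (-0.14 ± 0.02, limma adjusted p 0.000548).

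Ndufa1 had the largest change of the called genes. Its tails measured 104, 101 and 94 nt at D2 and 74.5, 80.9 and 82.8 nt at D4 (-0.32 ± 0.05, limma adjusted p 0.000548). It had 131 reads per library on average over the D2 and D4 libraries. Like Crabp1 it also fell in abundance. Among TOP genes Rpl39 moved most, from 84.6, 84.6 and 85.8 nt to 69.7, 76.1 and 73.3 nt (-0.21 ± 0.03, limma adjusted p 0.000417). These 4 genes were called whichever single library of D2 or D4 was left out.

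The other called ribosomal protein genes changed by 6.4 to 8.45 nt. Rplp0, the stalk base, went from 83, 80.9 and 83.8 nt to 75.4, 74.7 and 76.1 nt (-0.13 ± 0.03, limma adjusted p 0.0271), and Rps12 from 87.2, 85.7 and 87.8 nt to 79.3, 79.7 and 79 nt (-0.13 ± 0.03, 0.0272). Rpl23, Rplp2, Rps20, Rps28 and Rps29 had adjusted p-values of 0.0337 to 0.0405. In none of them did the days overlap, but their calls depended on the set of libraries, with 4 to 7 genes called when a single library was left out.

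A few TOP genes were not below 0. Npm1 had 85, 81 and 82.8 nt at D2 and 88.8, 86.1 and 92.6 nt at D4 (0.11 ± 0.04, limma adjusted p 0.6), and the other members at or above 0 were Eef1d, Eif4b, Hnrnpa1, Nap1l1, Rpl24, Rpl41, Rpl6 and Rpl7a. Of 79 ribosomal protein genes 75 were below 0 (median -0.07) and 8 called, and of the 16 other TOP genes 11 were below 0 (median -0.03) and 0 called. Rpl4 went from 84.2, 85.3 and 90.2 nt to 84, 81.2 and 83.5 nt (limma adjusted p 0.694) and Eef2 from 82.3, 84.9 and 86.6 nt to 79, 79.4 and 85.4 nt (0.847), with overlap for Eef2.

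**Figure D5:**
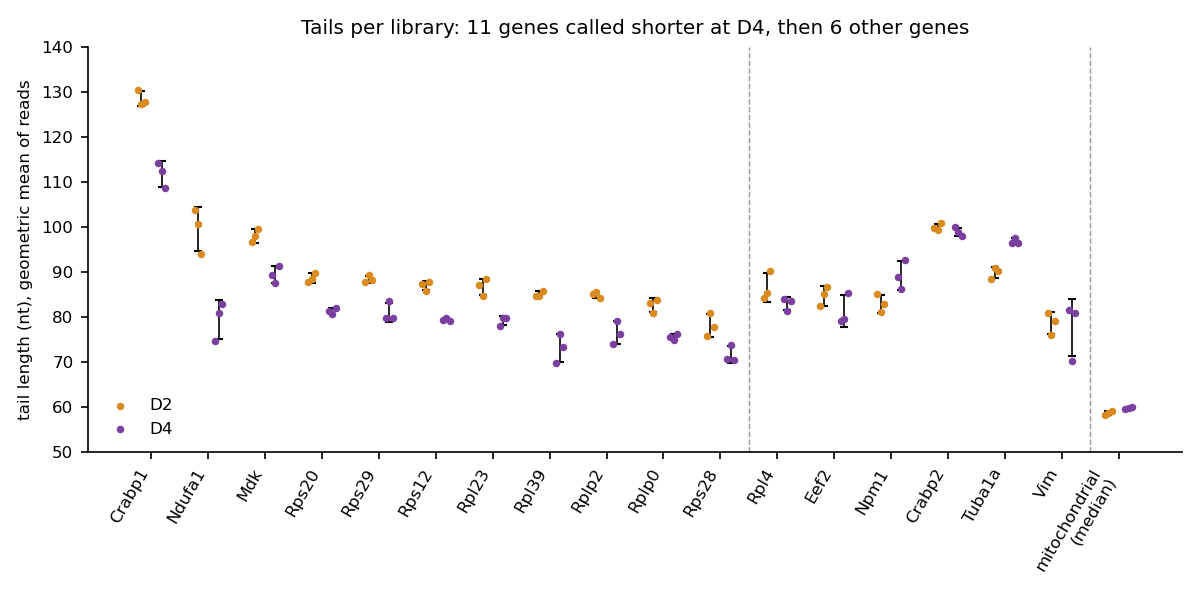
Geometric mean tail in nt (y axis, from 50 to 140) for the 11 genes with shorter tails, then Rpl4, Eef2, Npm1, Crabp2, Tuba1a and Vim, then the median tail of mitochondrial reads. Points are libraries (D2 orange, D4 purple) and bars the mean and SD of 3. The D4 points of the 11 genes lie below their D2 points, those of Npm1 and Tuba1a above, and Crabp2 and Vim overlap.

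No tested gene passed for longer tails. The smallest p-values in that direction were those of Hnrnpdl, an RNA-binding protein (112, 99.2 and 93.3 nt against 132, 125 and 130.4 nt, limma adjusted p 0.123), Trappc1, a vesicle tethering subunit (74.4, 83.9 and 85.9 nt against 109, 94.6 and 114 nt, 0.13), and the poly(C)-binding protein Pcbp1 (80.5, 84.7 and 94.3 nt against 93.4, 101 and 103 nt, 0.159). Genes with large rises in abundance did not pass the tail test. Tuba1a had 88.4, 90.9 and 90.2 nt against 96.4, 97.5 and 96.5 nt (0.10 ± 0.05, limma adjusted p 0.653) and Vim 80.8, 76 and 79.1 nt against 81.5, 70.2 and 80.9 nt (0.968). Of the genes higher in abundance 93 were in the tail test, with a median tail change of -0.02 and 51 below 0, and of the lower genes 49, with 0.03 and 22 below 0.

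By tail class, 6 genes had a higher share of tails of 30 to 90 nt (0.289%) and 0 a lower one at an adjusted p of 0.05 or less by limma, with 62 and 73 at an unadjusted p of 0.05. Besides Crabp1 they included Rpl39 (46.8 to 56.5%), Rps20 (49.2 to 57.1%), Rps29 (45.2 to 53.7%) and Rps4x (44.3 to 52.7%), with limma adjusted p-values from 0.000114 for Crabp1 to 0.0223 for Rps4x. When single libraries were left out, 1 gene was called without D2 replicate 1, 2 or 3 or D4 replicate 1, 2 without D4 replicate 3 and 6 without D4 replicate 2. For tails under 30 nt 0 genes were called by limma (0%), although the share was higher for 101 genes and lower for 24 before adjustment (p under 0.05).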

How the data were processed

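The authors sequenced RNA of P19 cells directly on nanopores, aligned reads to GENCODE vM17 transcripts of mm10 (GRCm38) with minimap2 (2.20 in the submitters' processing notes) and estimated poly(A) tails. The deposited table holds a line per read, with library, gene, biotype, tail length in nt (no count column) and a mapping quality score that the authors took from the aligner. Lines without a library label were not used. The authors' deposited table of comparisons holds log2 fold changes of each day against D0 with adjusted p-values and was not used.

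Kept reads were summed per gene. Genes with at least 30 reads over 12 libraries were tested by limma-voom (limma 3.58.1, R 4.3.3; trimmed mean of M-values scaling computed here, 0.5 reads added) on all 12 libraries, contrast D4 minus D2, with Benjamini-Hochberg adjustment and calls at 0.05. The table used here has no column of counts. Limma-voom on the summed reads was used in place of the authors' count model. Mean log2 tails and tail class percentages were tested by limma weighted by reads, where a gene had at least 5 reads in every D2 and D4 library and 20 on average. For single values of a library the test was an exact permutation of the 6 libraries, two-sided, which cannot give a p below 0.10. Intervals cover counting error only. The abundance test and the test of mean log2 tails were run on simulated data. The tests of tail class percentages and the permutation tests were not.

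Genes were named by rule: the 12 largest called changes in each direction among genes that averaged at least 10 reads and whose days did not overlap, the 6 largest gains and falls in mean CPM, up to 4 called members per list, the 8 largest called tail changes each way (if none, the 3 smallest p-values) and a fixed set of marker and TOP genes. Further genes named as list members were chosen after their values were seen. Some genes that the rule selects are not reported here. The members, lists and tests were chosen with earlier results of these data known. Alternatives changed the libraries fitted, scaling, filters, weights, depth, mapping quality, class limits, replicate block and, in turn, each library. Positions and sequences come from GENCODE vM21, in which 12641 of 12813 transcripts, the one with most reads per gene, were found by versioned identifier.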

Additional observations from a re-analysis of the deposited data

How the results depend on the processing

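The counts of genes higher and lower in abundance were 187 and 95. Limma-trend gave 320 higher genes, thinning to the smallest library 81 higher and 47 lower, and no filter on low counts 157 lower. Leaving out single libraries gave 98 to 213 higher and 51 to 84 lower. The runs of 13 January, an alternative chosen after seeing the data, gave 102 higher and 4 lower of 1269 tested. For tails (11 shorter, 0 longer), the 6 libraries alone gave 22 shorter, no weights 24 shorter and 4 longer, the runs of 11 January 21 shorter, those of 13 January 4 shorter of 250 tested, and leaving out single libraries 4 to 7 shorter and 0 to 1 longer. The count for tails of 30 to 90 nt (6) was 13 with the 6 libraries alone and 1 to 6 without single libraries. For tails under 30 nt the limit of 25 nt gave 1 gene and leaving out single libraries 0 to 1. With the replicate number as a block the counts were 226 and 108 in abundance (278 of 282 calls remained, against 140 of 282 without D2 replicate 2, 110 of 249 tested after thinning, 181 of 244 with mapping quality of at least 10, 210 of 249 in the runs of 11 January and 43 of 133 in those of 13 January), 25 shorter and 1 longer, and 10 for tails of 30 to 90 nt. Same-numbered libraries deviated together over genes with r of 0.131, 0.064 and 0.096 in abundance and -0.018, 0.016 and 0.002 in tails. The reported fits took the number as a name only. Yet on each day the share of kept reads with tails under 30 nt was highest in replicate 2 and lowest in replicate 3. In order of replicate it was 2.77, 3.38 and 2.44% at D2 and 3.38, 4.05 and 2.80% at D4. The cause was not tested.

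The difference in the median tail of kept reads (-0.59 nt) was 1.03 nt with each gene counted once and -1.39 to 0.13 nt without single libraries, against -5.63 to -4.35 nt for TOP reads, 0.83 to 2.53 nt for non-TOP reads and -1.32 to -0.18 points for the TOP share, which was -0.79 as reported and -2.10 points with a mapping quality of at least 10, where the days no longer overlap. The glycolysis list without Slc2a1 and Gapdh, or with mapping quality of at least 10, was also an alternative chosen after seeing the data. Among the 282 called genes, 4 of 244 tested had the opposite sign with mapping quality of at least 10 and 6 of 133 in the runs of 13 January. Of genes named in the text, these reversed. With mapping quality of at least 10, Slc2a1 was at 0.12, Gapdh at 0.17 and Pax6 at 1.26. In the runs of 13 January Rplp1 was at 0.10, Rps12 at 0.19 and Rpa1 at 0.46, where the median of all genes was 0.38. Under limma-trend Sox2 was at 0.027 and Larp1 at 0.073, Larp1 was at 0.02 after thinning, and without single libraries Sox2 lay between -0.10 and 0.13 and Larp1 between -0.12 and 0.15. Apart from the construction of each alternative, the cause was not tested. The D2 libraries were the shallower, with 120326 to 241064 kept reads, and at the depth of the smallest 81 higher and 47 lower genes were called.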

Other observations

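Some genes of chromatin and of imprinted loci passed the test. Of 35 tested chromatin genes 5 rose and 0 fell, with 19 above 0, 16 below and a median of 0.16, but 1 rose and the median was 0.01 after thinning to the smallest library. The nucleosome-binding Hmgn2 went from 1160.2, 1324 and 1381 CPM at D2 to 2048, 2290.0 and 1772 CPM at D4 (rise of 0.64 ± 0.11, limma-voom adjusted p 2.87e-05), Hmgb3 rose by 0.79 ± 0.17 and Hmgb1 by 0.51 ± 0.13, while Hmgb2 had 950.4 ± 52.4 and 1055 ± 144 CPM (n = 3, limma-voom adjusted p 0.57). Subunits of the neuronal BAF remodelling complex had few reads at D2, with 1 for Smarcd3 against 33 at D4 (ratio 16.9, 95% exact counting interval 2.83 to 688) and 1 for Actl6b against 22 (ratio 11.3, interval 1.82 to 465). Of 16 tested imprinted genes 9 were above 0 and 7 below, with 2 higher and 1 lower, and after thinning 1 was higher and 0 lower. Nnat, neuronatin, rose by 0.83 ± 0.20 and Plagl1 by 1.74 ± 0.47. The amino acid transporter Slc38a4 had 14 reads at D2 and 2 at D4 (limma-voom adjusted p 0.00328, ratio 0.0732, interval 0.00807 to 0.319). Without D2 replicate 2 Hmgb1, Smarcd3, Actl6b, Nnat and Plagl1 were not called (limma-voom adjusted p up to 0.275 over single libraries left out). Calls were also lost without D2 replicate 1 (Hmgb1, Actl6b, Plagl1), D2 replicate 3 (Actl6b, Plagl1), D4 replicate 2 (Hmgb1) and D4 replicate 3 (Plagl1, Slc38a4).

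Of 28 tested stress genes 2 fell, both metallothioneins, and 0 rose (7.14% called, beside 3.03% of all tested genes). Mt1 went from 235, 217 and 361 CPM to 139, 110.2 and 132 CPM (fall of 1.07 ± 0.20, limma-voom adjusted p 0.000214) and Mt2 from 172, 157 and 207 CPM to 110.2, 96.1 and 88.1 CPM (fall of 0.88 ± 0.21). Proteasome subunits had 0 called of 31 by limma-voom, with a median of -0.01. Of 77 mitochondrial ribosomal proteins 1 was higher (Mrpl34, 0.75 ± 0.21) and 1 lower (Mrps10, -1.13 ± 0.30). Together these are 2.60% of that list, beside 3.03% of all tested genes. Ubb, a polyubiquitin gene, rose by 0.64 ± 0.10. Mt2 lost its call without D2 replicate 3 (limma-voom adjusted p 0.0967), Mrpl34 without D2 replicate 2 or D4 replicate 3 (up to 0.604) and Mrps10 without D2 replicate 2 or 3 or D4 replicate 1 (up to 0.184).

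Other genes with large rises were the parathyroid hormone receptor Pth1r (7.84, 20.1 and 5.31 CPM to 93.8, 113 and 114 CPM, 3.04 ± 0.52) and the BMP co-receptor Rgmb (2.64 ± 0.61). The tetraspanin Tspan17 had 2 reads at D2 and 63 at D4 (ratio 16.1, 95% exact counting interval 4.29 to 136). Among the lower genes D10Wsu102e (1681 ± 164 to 621 ± 148 CPM, n = 3) and Vmn2r97 (1571 ± 210.4 to 654 ± 134 CPM) had reads stacked at a single internal position of the transcript, and 40.3% and 36.5% of them had a mapping quality under 10, so the gene they stem from is uncertain. The same holds for Gm3839 with 86.3% such reads. The histone acetyltransferase Kat2a fell by 1.28 ± 0.29 with 100.0% of its reads under that limit, and Mphosph8, a reader of histone methylation, fell by 1.26 ± 0.35. Gm3839 and Kat2a lost their calls without D2 replicate 2 (limma-voom adjusted p 0.0666 and up to 0.067), Kat2a also without D4 replicate 3, and Mphosph8 without D2 replicate 1 or 3 or D4 replicate 1 or 3 (up to 0.252).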
